A study of Mus musculus with 8 samples.

Results

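Described here are stretches of the mouse genome that lay in lamina associated domains (LADs) of both the Tmem120a knockdown and the Tmem120a/b double knockdown in 3T3-L1 adipocytes, and in no LAD of preadipocytes or control adipocytes. They were found by bp. Sequence held by both knockdown lists was taken, sequence held by the preadipocyte or the control adipocyte list was removed, and pieces of at least 8 kb were kept. This left 908 stretches of 21.9 Mb, out of 1332 pieces of any length, from 4 lists with 19150 LADs in all. The stretches were therefore chosen by the LAD calls themselves, so that their state in each list is a description of the lists. The 424 pieces under 8 kb summed to 1.70 Mb.

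LaminB1-DamID was carried out in 3T3-L1, an established mouse fibroblast line that becomes adipocytes in culture after hormonal induction. There were 4 conditions, each with 1 library of free Dam and 1 of the LaminB1-Dam fusion, so 8 libraries in all and no replicate of any condition. Preadipocytes were undifferentiated cells labelled day 0 and untreated, and the control adipocytes were differentiated to day 9 and carried a control non-target shRNA. The knockdown adipocytes, also at day 9, carried Tmem120a shRNA or Tmem120a/b shRNA. Cells were transduced with lentivirus encoding the Dam constructs, the adipocytes from day 6 of differentiation. The labels give 36 h for the transduction, whereas the methods of the study give a longer time in culture after it. The labels give no shRNA for the preadipocytes, while all adipocytes carried one. The lists hold positions alone, so neither the strength of a LAD nor the loss of Tmem120a or Tmem120b can be read from them, and no value below has a spread between cultures. Read depth is unknown.

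Lamina associated domains are long regions of chromatin that lie close to the nuclear lamina, a protein mesh under the inner nuclear membrane, and they are known to be poor in genes and mostly silent. In DamID a bacterial adenine methylase is fused to a lamina protein, here LaminB1, and methylates the adenine of GATC sites nearby, while free Dam gives the background of accessible DNA. Tmem120a and its paralog Tmem120b are transmembrane proteins of the nuclear envelope, and Tmem120a is known for a part in adipocyte differentiation.

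DamID is read in fragments between GATC sites, and 96.5 to 98.8% of the LAD borders of a list fell at such a site. Sites at 5 of the 6 ends of 3 long stretches are shown, 64 bases each of mm9, plus strand, with the GATC at the border in capitals. The first stretch, inside the kinase gene Stk39, ran from chr2:68054505-68176940, the second held the Slc17a transporter genes at chr13:23936100-24048769, and the third held the growth factor gene Btc at chr5:91747019-91854318. Each name says which list placed the border.
Stk39 stretch, left end, border of a preadipocyte LAD: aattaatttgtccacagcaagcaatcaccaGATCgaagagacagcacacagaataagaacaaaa
Stk39 stretch, right end, border of the double knockdown LAD: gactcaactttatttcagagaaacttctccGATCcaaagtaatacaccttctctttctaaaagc
Slc17a stretch, right end, border of the double knockdown LAD: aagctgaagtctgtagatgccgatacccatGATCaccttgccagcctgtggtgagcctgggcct
Btc stretch, left end, border of the Tmem120a knockdown LAD: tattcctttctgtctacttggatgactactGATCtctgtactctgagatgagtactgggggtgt
Btc stretch, right end, border of a preadipocyte LAD: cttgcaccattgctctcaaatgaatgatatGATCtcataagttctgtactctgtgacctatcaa
A stretch held 48 GATC sites in the median, from 10 to 293. Each stretch thus spanned many sites at which methylation could be read, and the density of sites was 2.41 per kb.

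Gene starts that lay in new LAD sequence are shown for the 3 longest protein-coding genes wholly inside a stretch, as the 200 bases before the annotated start on the strand of the gene (mm9). The window of Btc, the gene of betacellulin, a ligand of the EGF receptor, was chr5:91831940-91832139 on the minus strand. That of Slc17a1, the gene of a phosphate and organic anion transporter, was chr13:23959419-23959618 on the plus strand. That of Fam199x was chrX:133583933-133584132 on the plus strand.
Btc: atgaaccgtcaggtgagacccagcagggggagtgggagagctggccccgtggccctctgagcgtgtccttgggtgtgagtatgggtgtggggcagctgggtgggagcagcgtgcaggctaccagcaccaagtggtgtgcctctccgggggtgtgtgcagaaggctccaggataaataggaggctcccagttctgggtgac
Slc17a1: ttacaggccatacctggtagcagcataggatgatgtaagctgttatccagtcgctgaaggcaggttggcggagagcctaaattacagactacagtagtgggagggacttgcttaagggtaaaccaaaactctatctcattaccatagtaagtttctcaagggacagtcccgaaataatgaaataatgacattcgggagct
Fam199x: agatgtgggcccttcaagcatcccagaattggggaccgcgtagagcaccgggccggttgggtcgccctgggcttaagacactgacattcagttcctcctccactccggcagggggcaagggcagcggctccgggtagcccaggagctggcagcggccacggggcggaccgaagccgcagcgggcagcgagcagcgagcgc
None of these windows held the letters GATC. They held 5, 4 and 17 CpG, respectively. Of all 22367 protein-coding genes, 32.9% had GATC in this window, against 26.4% of the 174 genes whose start lay in a stretch. The median number of CpG was 7 over all genes and 3 over the 174, and windows without any CpG made up 9.63% and 13.2%.

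The new LAD sequence was spread as many short pieces. Stretches had a median length of 20.01 kb, with quartiles of 13.8 and 30.1 kb, and 268 of them were under 15 kb. In all, 44 reached 50 kb and 6 reached 100 kb. At the threshold, the shortest stretches kept were chr2:154123437-154131443 with 8.007 kb and chr17:4753188-4761224 with 8.037 kb, and the longest left out were chr7:140421695-140429685 with 7.991 kb and chr15:9130904-9138896 with 7.993 kb. Neighbouring stretches of a chromosome lay 779 kb apart in the median, and 96 of 888 neighbouring pairs were within 50 kb of each other.

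**Figure D1:**
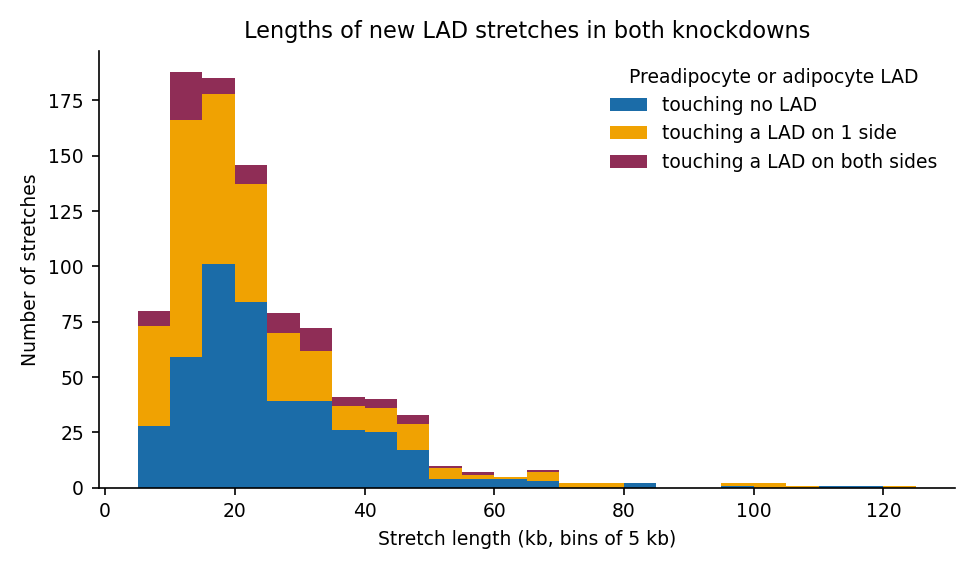
Number of stretches (vertical axis) by length in kb (horizontal axis, bins of 5 kb), with colours for stretches touching no preadipocyte or adipocyte LAD, touching one on 1 side, or on both sides. Most stretches were under 30 kb in all 3 classes, and a thin tail reached 122 kb.

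The 908 stretches made up 0.823% of the genome and were part of what each knockdown list held anew. Of the 1336.9 Mb outside preadipocyte and control adipocyte LADs, of which 96.3 Mb are uncalled bases, 68.5 Mb, or 5.12%, lay in Tmem120a knockdown LADs and 92.8 Mb, or 6.94%, in double knockdown LADs. Sequence held by both was 34.4% of the former and 25.4% of the latter. At the same minimum of 8 kb, 1610 stretches of 42.9 Mb were in the Tmem120a knockdown list alone and 2327 stretches of 67.0 Mb in the double knockdown list alone.

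Sharing between any other pair of lists gave amounts on both sides of this one. Sequence in preadipocyte and control adipocyte LADs and in neither knockdown came to 1172 stretches and 32.4 Mb. The other pairs ran from 13.1 Mb for preadipocytes with the Tmem120a knockdown to 27.8 Mb for control adipocytes with the Tmem120a knockdown. The 21.9 Mb of the 2 knockdowns thus lay within the range of the other pairs. The lists also differed in how finely they were cut, from 2542 LADs for control adipocytes and 3914 for preadipocytes to 5723 and 6971 for the Tmem120a and double knockdown, and the part of this in the number of stretches was not tested.

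**Figure D2:**
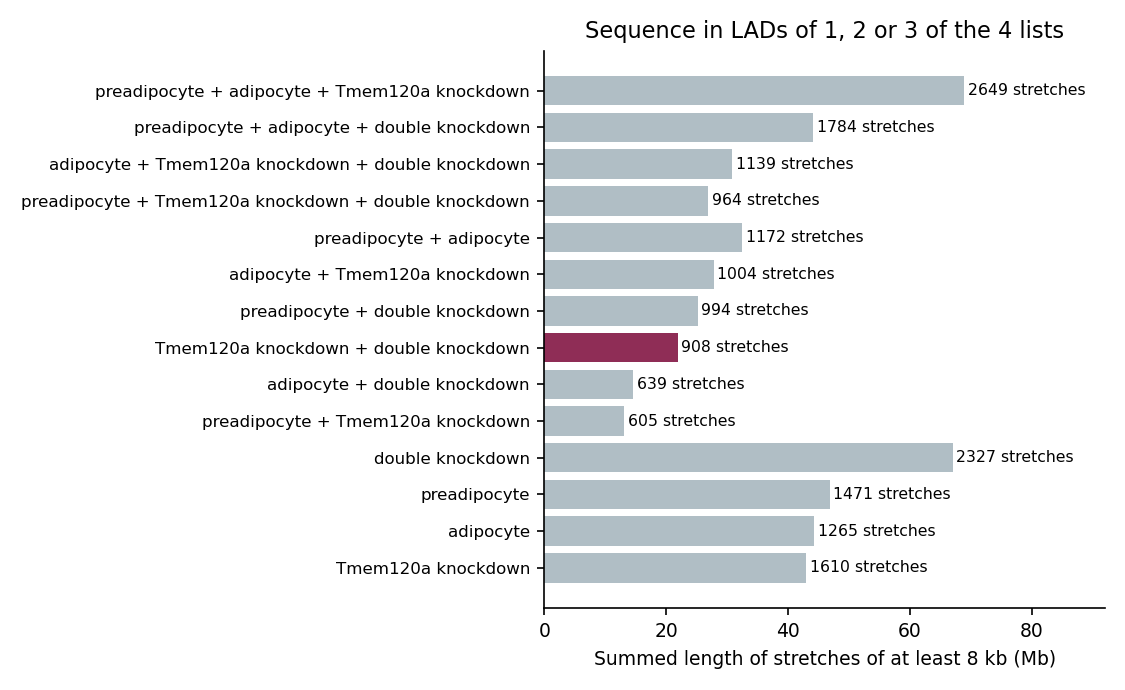
Summed length in Mb (horizontal axis) of stretches of at least 8 kb that lay in LADs of exactly the lists named (vertical axis), with the number of stretches beside each bar. The bar of both knockdowns, in dark red, has 908 stretches and 21.9 Mb and is neither the longest nor the shortest among pairs of lists.

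The stretches occurred on all chromosomes of the lists but Y. Over called bases outside preadipocyte and control adipocyte LADs, chromosome 10 had the largest share in stretches, 2.79%, with 67 stretches and 1.78 Mb. Chromosomes 18, 14 and 13 followed with 2.56%, 2.36% and 2.26%. The lowest shares apart from Y were those of chromosomes 15, 7 and 11, with 1.02%, 1.08% and 1.08%. The X chromosome held 38 stretches, 1.64% of such sequence. Y held none, but no more than 0.384 Mb of its called sequence lay outside those LADs, so little could be seen there.

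Roughly as many stretches were extensions of LADs already called as were set apart from them. Of the 908, 391 touched a preadipocyte or control adipocyte LAD on 1 side (43.1%, 95% Wilson interval 39.9 to 46.3%) and 79 on both sides (8.70%, 7.04 to 10.7%). The other 438 (48.2%, 45.0 to 51.5%) touched none and summed to 11.1 Mb. These intervals cover counting over stretches alone. With LADs under 100 kb left out of all lists, 79.3% of the stretches touched such a LAD. Median lengths were 17.2 kb for stretches touching on 1 side and 21.2 kb for the other classes. Of the 1816 stretch ends, 549 met such a LAD, of which 321 met a LAD of preadipocytes alone, 221 of control adipocytes alone and 7 of both. The preadipocyte list had 7828 borders in all and the control adipocyte list 5084. The part of this in the counts of ends was not tested. The longest stretch filling a gap between LADs on both sides was chr18:3884631-3954223 with 69.6 kb, in which no protein-coding gene was annotated.

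Stretches that touched none were still often near such a LAD. Their median distance to the nearest one was 62.1 kb, with quartiles of 18.9 and 214 kb. No preadipocyte or control adipocyte LAD lay within 100 kb of 176 of them, nor within 500 kb of 46, and the most distant stretch was 2567 kb away. The nearest was a preadipocyte LAD for 295 of the 438. Over all 908 stretches the median distance was 19.1 kb to a preadipocyte LAD and 53.8 kb to a control adipocyte LAD. The preadipocyte list had 3914 LADs and the control adipocyte list 2542, at summed lengths of 1193 and 1198 Mb. The part of this finer cut in the distances was not tested.

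LAD occupancy around the stretches was followed outwards from their borders. At 100 kb, 32.0% of positions lay in a preadipocyte LAD, 26.3% in a control adipocyte LAD, 34.9% in a Tmem120a knockdown LAD and 44.2% in a double knockdown LAD. Around stretches that touched none, the same shares were 19.3%, 15.9%, 23.4% and 32.0%. All of these except the 44.2% were below the share of the whole genome in LADs of the same list, which was 44.9%, 45.1%, 43.8% and 43.7%. At 500 kb the shares around all stretches were 35.6%, 33.2%, 36.4% and 39.2%. Near the border the rule itself sets the curves apart.

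**Figure D3:**
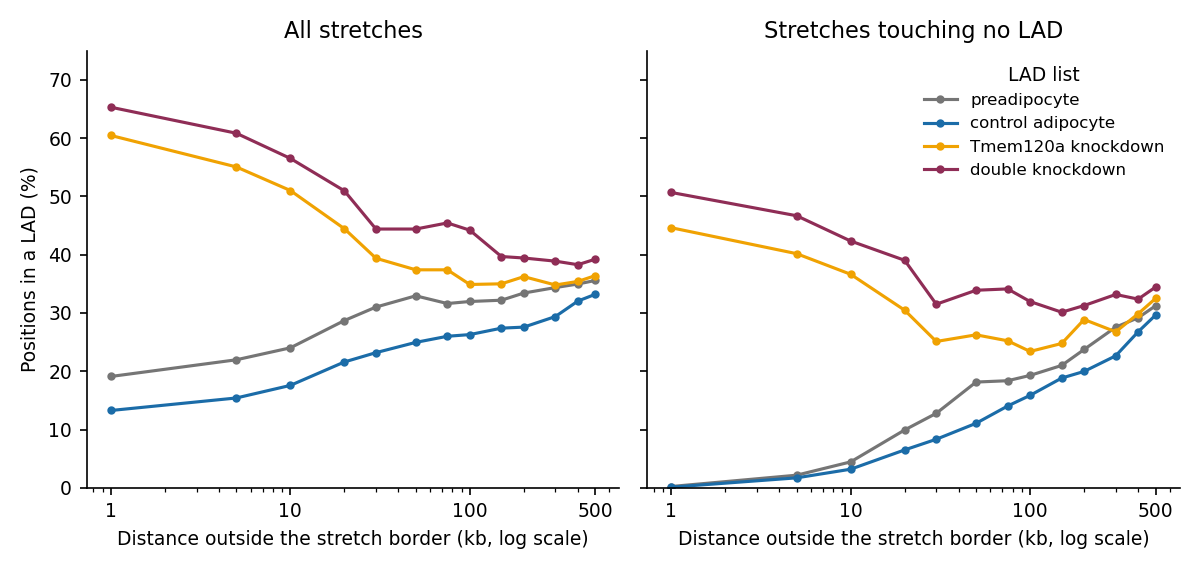
Share of positions in a LAD of each list (vertical axis, %) by distance outside the stretch border (horizontal axis, kb, log scale), for all 908 stretches at left and for the 438 touching no preadipocyte or adipocyte LAD at right. The 4 lines draw together with distance, to between 33.2% and 39.2% at 500 kb at left.

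The knockdown lists seldom placed a border at the same site. There were 1267 stretch ends not set by a preadipocyte or control adipocyte LAD. At 670 of them a border of a Tmem120a knockdown LAD fell inside a double knockdown LAD, and at 586 the reverse held. Both lists ended at the same base in 11 of the 1267 (0.868%, 95% Wilson interval 0.485 to 1.55%). This interval covers counting over stretch ends alone. Ends of 1 stretch, or of stretches in the same LADs, are not separate cases. The 2 knockdown borders were within 1 kb of each other at 68 ends, or 5.37%, and within 20 kb at 640, or 50.5%. The median offset was 19.7 kb, close to the median length of a stretch. Over the 11 stretches with such an end, the Jaccard index of the 2 knockdown LADs, their shared over their combined length, ran from 0.123 to 0.963. The highest was that of the stretch at chr10:4692359-4725030, singled out after its values were seen, with LADs of 165 and 159 kb. It held Vip, the gene of vasoactive intestinal peptide. The lowest, likewise singled out, was that of chr3:28411593-28438120, with LADs of 26.5 and 216 kb.

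Whether a whole new LAD was shared, or a part of a longer one, was asked next. In 290 stretches (31.9%, 7.33 Mb) both knockdown LADs were clear of preadipocyte and control adipocyte LADs over their whole length. These LADs had median lengths of 41.2 kb with knockdown of Tmem120a and 43.5 kb with the double knockdown, and a median Jaccard index of 0.382, with 17 at 0.8 or above and a highest value of 0.957. In 481 stretches (53.0%) both knockdown LADs also overlapped a preadipocyte or control adipocyte LAD elsewhere. Of all 1141 Tmem120a knockdown LADs clear of those lists, 400 (35.1%) met a double knockdown LAD, and of 1507 such double knockdown LADs, 394 (26.1%) met one of the Tmem120a knockdown.

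The longest stretches showed each of these forms. The 122 kb at chr2:68054505-68176940 continued a preadipocyte LAD and lay 1.57 kb from a control adipocyte LAD. Its parent LADs measured 588 kb with knockdown of Tmem120a and 929 kb with the double knockdown, and it lay wholly in the body of Stk39, which encodes a kinase of cation-chloride cotransporters. At chr18:77445158-77562281, 117 kb touched no such LAD, although a control adipocyte LAD was 1.17 kb away. It met Loxhd1, a gene of inner ear hair cells, and St8sia5, a sialyltransferase gene.

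At chr13:23936100-24048769, 113 kb formed a LAD of their own. The Tmem120a knockdown LAD was 149 kb and the double knockdown LAD 113 kb, and the nearest preadipocyte or control adipocyte LAD was 382 kb away. It met Slc17a1, Slc17a3 and Slc17a4, a cluster of anion transporters of kidney, liver and gut, with Scgn, which encodes a calcium sensor of endocrine cells, and the testis histone genes Hist1h2aa and Hist1h2ba. At chr5:91747019-91854318, 107 kb continued a preadipocyte LAD and held Btc. At chr10:83262487-83365757, 103 kb continued a preadipocyte LAD and met no protein-coding gene. One more, chosen after its values were seen, was chr11:60389941-60485415, with 95.5 kb and no protein-coding gene. Its knockdown LADs of 101 and 98.2 kb had a Jaccard index of 0.925 and lay 1745 kb from the nearest preadipocyte or control adipocyte LAD.

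In base composition the stretches were unlike the LADs of all 4 lists. GC content was 42.7% over the stretches, against 39.2% over stretches in LADs of all 4 lists and 39.8% over those in preadipocyte and control adipocyte LADs alone. Quartiles of single stretches were 40.5 and 44.7%, with a median of 42.5%. Sequence in no LAD had a GC content of 44.2% over all bases and 42.5% in the median of its regions. GATC density was 2.41 per kb in the stretches and in sequence in no LAD, and 2.60 per kb in LADs of all 4 lists, while CpG density was 8.60, 10.6 and 6.00 per kb. Stretches new in the Tmem120a knockdown alone had 42.5% GC and those new in the double knockdown alone 43.0%, so that the shared stretches lay between them. No test was run on these values, because regions of one list are not replicates.

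Protein-coding starts were sparser in the stretches than in sequence in no LAD, while gene bodies covered them nearly as much. There were 7.96 starts per Mb in the stretches, 14.1 in sequence in no LAD and 4.09 in LADs of all 4 lists. Protein-coding gene bodies covered 47.6% of the stretches, 54.2% of sequence in no LAD and 23.9% of LADs of all 4 lists. By exon and intron, the stretches were 3.01% exon, 44.6% intron and 52.4% outside protein-coding genes. Of the 908 stretches, 301 (33.1%) lay wholly inside 1 gene body and 386 (42.5%) met no protein-coding gene. Stretches new in 1 knockdown alone had 8.29 starts per Mb where that was Tmem120a and 8.80 where it was the double knockdown.

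**Figure D4:**
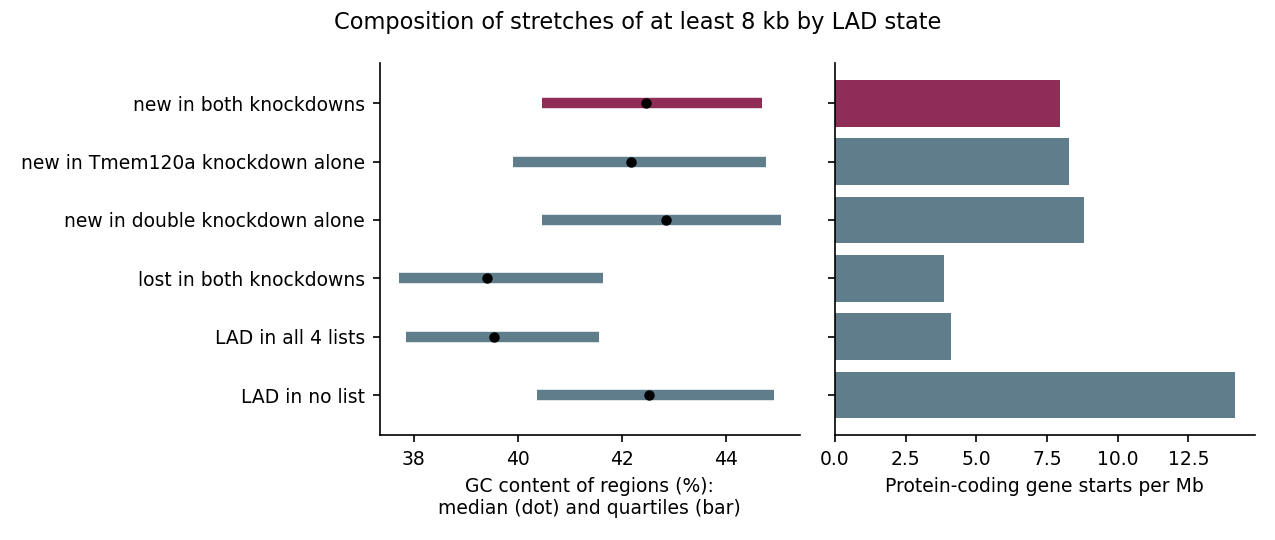
GC content in % (left, dot at the median of regions and bar from the lower to the upper quartile) and protein-coding gene starts per Mb (right) for regions of at least 8 kb, by LAD state (vertical axis); lost in both knockdowns means in preadipocyte and control adipocyte LADs alone. Stretches new in both knockdowns, in dark red, had a median GC content of 42.5% and 7.96 starts per Mb.

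Of 22367 protein-coding genes, 534 (2.39%) met a stretch. The start of 174 (0.778%) lay in one, 141 (0.63%) had at least 50% of the body in stretches, and 69 (0.308%) lay wholly in one. The genes meeting a stretch new in the Tmem120a knockdown alone numbered 1006 (4.5%) and those meeting one new in the double knockdown alone 1502 (6.72%). Of 16082 genes in no preadipocyte or control adipocyte LAD, 277 (1.72%) met a stretch, and the other 257 of the 534 were already partly in such a LAD. A gene that met a stretch had a median of 23.9% of its body in stretches.

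Long genes were met most often. The median body was 74.5 kb among genes that met a stretch and 15.4 kb among all. The share meeting a stretch went from 0.892% of genes under 10 kb to 3.09% of those of 30 to 100 kb and 15.3% of those of 300 kb and over. The share of the summed bodies that lay in stretches varied less, from 0.586% for genes under 10 kb to 1.33% for those of 100 to 300 kb and 0.921% for those of 300 kb and over. All counts for gene lists below are to be read beside the 2.39% of all protein-coding genes, and the median body differed between lists, from 0.963 kb for olfactory receptors to 114 kb for collagens.

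The genes with the most sequence in stretches were long ones of which a part became LAD in both knockdowns. Grik4, a kainate type glutamate receptor subunit, was in no preadipocyte or control adipocyte LAD, whereas 47.7% of its body lay in Tmem120a knockdown LADs and 44.2% in double knockdown LADs. Its 4 stretches of 34.2, 8.57, 29.5 and 23.7 kb all lay inside the gene. Trappc9, which encodes a subunit of the TRAPPII trafficking complex, was likewise at 0% in both control lists, with 32.3% upon Tmem120a knockdown and 47.2% upon double knockdown, in 2 stretches of 35.9 and 47.4 kb. In neither gene did the start lie in a LAD of any list.

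Most other long genes were partly in LADs of the control lists too. Shares of the body in preadipocyte, control adipocyte, Tmem120a knockdown and double knockdown LADs were 8.98%, 17.0%, 42.7% and 78.2% for Fstl4, a follistatin-like gene with 124 kb in 4 stretches. They were 8.99%, 1.69%, 52.7% and 49.1% for Stk39. For Cdh13, which encodes T-cadherin, a receptor of adiponectin, they were 13.6%, 2.74%, 20.7% and 52.7%, with 89.7 kb in 2 stretches.

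Plxna4, a semaphorin receptor, had 34.1%, 7.95%, 40.9% and 63.6% in the same order of lists. Sel1l3 went from 24.98% and 0% to 100% and 80.8%, with 79.8 kb in 1 stretch. AW554918 had 6.69%, 16.6%, 68.3% and 65.2%, with 133 kb, the most of any gene, and Fam189a1 10.7%, 5.58%, 31.9% and 64.8%. Each of these genes had more of the body in LADs of either knockdown list than of either control list, which their choice by sequence in stretches favours.

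**Figure D5:**
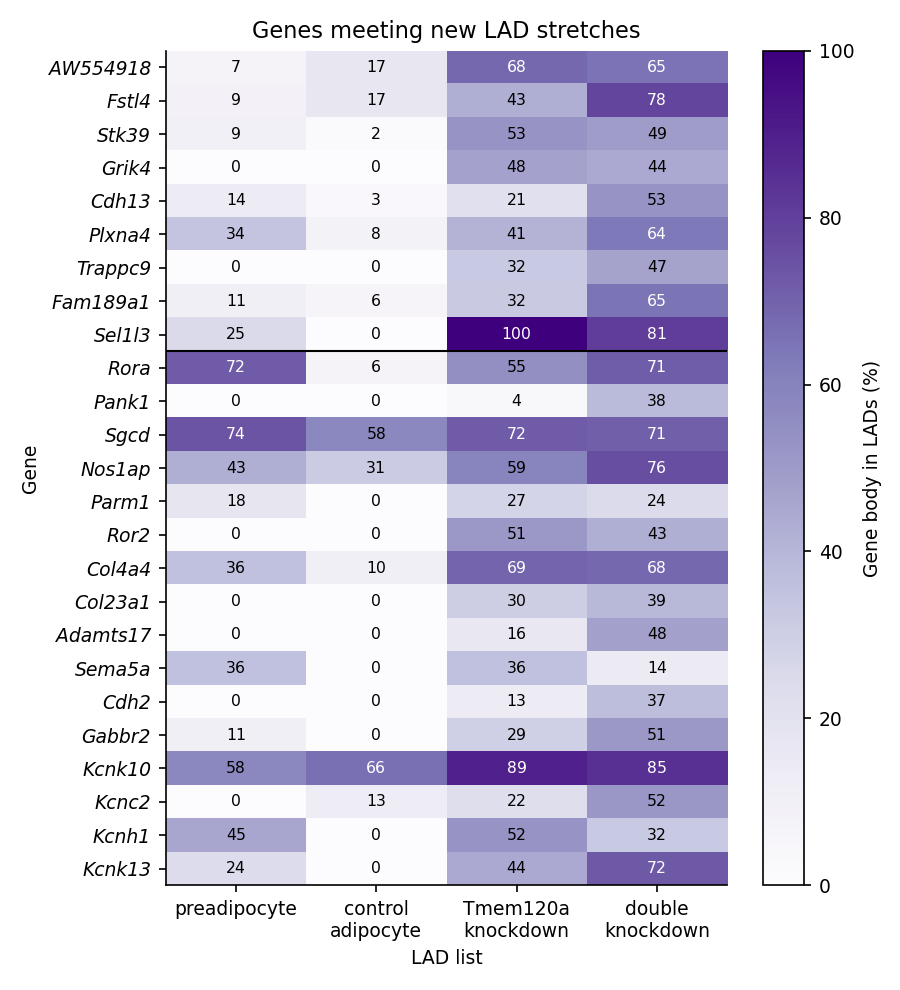
Share of each gene body in LADs (colour and printed value, %) in the 4 lists (columns) for genes with the most sequence in stretches (above the line) and for other genes of the lists described in the text (below). Grik4, Trappc9, Ror2, Col23a1, Adamts17, Cdh2 and Pank1 were at 0% in both the preadipocyte and the control adipocyte list.

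Each list of fat or muscle genes held at most 1 gene that met a stretch. None of 42 genes of lipid storage, insulin response and adipokines met one, and none of 50 genes of fatty acid and triglyceride synthesis. Among 43 adipogenic transcription factors, Rora, a nuclear receptor, met 1 stretch of 30.2 kb inside its body. Rora had 72.0% of the body in preadipocyte LADs, 6.46% in control adipocyte LADs, 54.6% upon Tmem120a knockdown and 71.3% upon double knockdown. Among 33 thermogenic genes, Pank1, a pantothenate kinase of coenzyme A synthesis, had its start and 2.57 kb in a stretch and was at 0%, 0%, 3.74% and 38.2%. Of 106 muscle genes, Sgcd, which encodes delta-sarcoglycan and was named after its values were seen, met a stretch of 40.6 kb and was at 73.9%, 57.6%, 71.9% and 71.0%. Beside the 2.39% of all protein-coding genes, lists of this size hold too few genes for their share to be told from it.

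Of 20 genes that the study discusses, some of them picked from these libraries, 2 met a stretch, with a median body of 48.9 kb over the list. Parm1, which encodes a mucin-like membrane protein, had its start and 7.43 kb in the stretch at chr5:91912354-91954071, on the same chromosome as Btc and 58.0 kb beyond the end of the Btc stretch. Its body was at 17.9%, 0%, 27.5% and 24.3%. Nos1ap, an adaptor of neuronal nitric oxide synthase, met 30.9 kb in 1 stretch and was at 42.8%, 31.0%, 58.9% and 75.8%. Ak4, Ano5, Cpe, Dctd, Fh1, Fpr1, Jazf1, Klf9, Myh1, Myh2, Myo18b, Pla2g12a, Ptprv, Sema3c, Tmem120a, Tmem120b, Trim55 and Unc13c met none. Tmem120a and Tmem120b were themselves in no LAD of any list.

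Of the signalling and matrix lists, each had 1 or 2 genes that met a stretch, against 2.39% of all protein-coding genes. Of 61 Wnt pathway genes, Ror2, a Wnt5a receptor, was met and went from 0% in both control lists to 50.8% with knockdown of Tmem120a and 42.9% with the double knockdown. Fstl4 was the 1 of 76 genes of the BMP, activin and TGF-beta pathway. Of 43 collagens, Col23a1 was at 0%, 0%, 30.1% and 39.0%, and Col4a4, a basement membrane chain, at 35.7%, 10.2%, 69.4% and 68.0%. Of 51 matrix proteases and inhibitors, Adamts17 was at 0%, 0%, 16.2% and 47.7%.

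Among adhesion and guidance genes, 2 of 74 semaphorins, plexins, ephrins and slits and 2 of 74 cadherins and protocadherins met a stretch. Sema5a was at 35.7%, 0%, 35.9% and 14.2%, and Cdh2, which encodes N-cadherin, at 0%, 0%, 13.3% and 37.0%. Of 51 glutamate and GABA receptor genes, Gabbr2, a GABA-B receptor subunit, was at 10.8%, 0%, 29.4% and 51.1%, beside Grik4. Of 163 interleukins, interferons, chemokines and their receptors, Il1rn, the interleukin 1 receptor antagonist, had 1.24 kb in a stretch, 8.43% of its body. Il1rn was at 91.6%, 0%, 100% and 16.5%, so most of it was already in a preadipocyte LAD. It too was named after its values were seen.

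Genes of the potassium channel list were met at 8.33%, 8 of 96, against 2.39% of all protein-coding genes. The list had a median body of 27.5 kb against 15.4 kb. Apart from Kcna5, the genes met had bodies of 98.2 to 1135 kb. Of all protein-coding genes, 7.58% of those of 100 to 300 kb and 15.3% of those of 300 kb and over met a stretch. Length was not matched between the lists. Stretches covered 1.77% of the summed bodies of the potassium channel list, against 1.04% for all protein-coding genes. Kcna5, a voltage-gated channel of 3.00 kb, lay whole in a stretch of 49.7 kb. Kcnk10 and Kcnk13, both of the tandem pore domain family, had 45.2 and 14.2 kb in stretches, Kcnc2 40.3 kb and Kcnh1 39.4 kb. Kcnd3, Kcnip4 and Kcnj6 had under 15 kb in stretches. These 3 and Kcnk10 had more than 50% of the body in LADs in all 4 lists, and Kcnk10 was at 57.7%, 66.2%, 89.2% and 84.6%. Kcnip4 is in the list by its symbol and encodes a protein that interacts with channels, not a channel. Solute carriers were met at 3.78%, 14 of 370, with 1.80% of their bodies, and zinc finger genes at 2.99%, 11 of 368. Olfactory receptors were met at 0.736%, 8 of 1087, vomeronasal receptors at 1 of 323, and no cytochrome P450 gene of 96. Related genes of one cluster can share a stretch, as Slc17a1, Slc17a3 and Slc17a4 did, and are then not separate cases.

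The 69 genes wholly inside a stretch had bodies of 0.123 to 45.7 kb. After Btc at 45.7 kb, Fam199x at 32.9 kb and Slc17a1 at 28.0 kb, the 20 longest held Tmprss3, a serine protease of the inner ear, Tm7sf4, which encodes DC-STAMP of osteoclast fusion, Lyg1, a lysozyme, and Chst4, a sulphotransferase of lymph node vessels. Also in this set were Slc17a4, Vip, the natural killer receptor ligand gene H60c, the serpin gene Serpina3g, and Bet1 and Ufm1, of vesicle transport and protein modification. The rest were Gm9880, Gm5077, Gm11595, Gm15448, Dmrtc1b, BC049635 and Zfp773. By the rule, each was at 0% in both control lists and at 100% in both knockdown lists.

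Among non-coding genes, 12 of 1273 lincRNA genes (0.943%), 40 of 2572 processed transcripts (1.56%), 65 of 5201 pseudogenes (1.25%) and 6 of 1577 miRNA genes (0.38%) met a stretch. Protein-coding genes under 10 kb were met at 0.892%, and gene length was not matched between these classes. Whole inside a stretch were 5 miRNA genes, namely AC135292.1, AC133597.1, AC171500.1, AC134903.1 and Mir872. Of these, Mir872 matched a RefSeq entry, and its mature products are shown with the seed, bases 2 to 8, in capitals (RefSeq, GRCm38.p6).
mmu-miR-872-5p: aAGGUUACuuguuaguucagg
mmu-miR-872-3p: uGAACUAUugcaguagccuccu
The hairpin lies at chr4:94331848-94331928 of mm9, plus strand, inside the body of Ift74, an intraflagellar transport gene. Its stretch, chr4:94323566-94354329, was 30.8 kb long and touched no preadipocyte or control adipocyte LAD, the nearest being 18.4 kb away. Both knockdown LADs there were of nearly this length, 33.6 and 30.8 kb, with borders 1.08 and 1.77 kb apart.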

How the data were processed

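LaminB1-DamID lists of 4 conditions were analysed, each from 1 Dam and 1 LaminB1-Dam library. The authors mapped reads to mm9, took the log2(LaminB1-Dam/Dam) per DpnI fragment and segmented it with DNAcopy; their processing notes also name BWA and limma. The deposited lists hold genome positions in bp alone. In every list the shortest LAD was 15.0 kb and the shortest gap 4.00 to 4.01 kb, a limit that shapes which stretches can be seen. The abbreviation of each list gave its condition, and starts were read as counted from 0. Deposited differential regions were not used, since no stretch can overlap them.

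Intersection and subtraction by bp used numpy 2.4.6 in Python 3.11.15, Wilson intervals scipy 1.17.1 and plots matplotlib 3.10.9, and the code was checked on simulated intervals. Sequence came from NCBIM37, the same assembly, whose GATC sites held 96.5 to 98.8% of the LAD borders of a list, and genes from GENCODE vM1. The members and lists were chosen with earlier results of these data known. Regions named are the 5 longest stretches, the longest of each border class and the 4 at the threshold, beside regions marked in the text as singled out and those that hold a named gene. Genes named are list members meeting a stretch (lists over 100 genes excepted, beside 2 genes marked in the text), the 20 longest wholly inside one, the 10 with most bp, the miRNA genes, genes of the named regions and those the study discusses; a gene and a border sequence of these are not reported here. With 1 list per condition no test between conditions could be run and none is given.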

Additional observations from a re-analysis of the deposited data

How the results depend on the processing

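No paired analysis was possible because each condition has 1 list and no result comes from a test. Of 69 alternative values, 47 stayed within 1.5-fold of the value given (shares within its 95% Wilson interval, GC content within 1 SD over stretches) and 22 moved further. By construction, stricter minimums left fewer stretches: 603 at 16 kb and 230 at 30 kb, where they summed to 10.2 Mb, had a median of 40.1 kb and met 178 genes. With LADs of at least 100 kb alone, 179 stretches of 7.97 Mb met 156 genes. The share touching a preadipocyte or adipocyte LAD was 56.2%, 45.6% and 44.8% at minimums of 4, 16 and 30 kb, 58.3% and 79.3% with LADs of at least 30 and 100 kb, 61.1% with gaps under 50 kb closed, and 41.3% with control LADs extended by 10 kb. Counting a LAD within 10 or 50 kb as touching gave 58.7% and 73.5%. Borders placed alike were 2.71% at a minimum of 30 kb, 5.37% within 1 kb and 17.2% within 5 kb. Genes with the start in a stretch numbered 174, and those with at least 50% of the body 141. Except for the relaxed definitions of touching and of a shared border and the stricter minimum lengths, the cause of these shifts was not tested. GC content stayed between 42.6% and 42.8% in all 9 alternatives. What limits these results is the single list per condition, the absence of scores and depth, and the authors' minimum lengths of LADs and gaps.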

Other observations

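Some further genes lay inside stretches, picked after their values were seen. The keratin-associated gene Krtap4-8 lay with Gm11595 in a stretch of 46.5 kb at chr11:99598011-99644532. The mast cell protease genes Mcpt1 and Mcpt9 and the granzyme gene Gzmd lay whole in stretches on chromosome 14, as did the bitter taste receptor genes Tas2r137 and Tas2r108 on chromosome 6. Olfr1366 shared a stretch of 23.3 kb on chromosome 13 with part of Zfp192. All 8 genes of the olfactory receptor list that met a stretch had their start in it, and 7 of them lay whole inside. Among all 534 protein-coding genes that met a stretch these numbers were 174 and 69. The olfactory receptor list had a median body of 0.963 kb, against stretches of at least 8 kb. A gene so short has little room to lie partly outside. Olfr1375-ps1, which is not in that list, also lay whole in a stretch.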
